A study of Mus musculus with 23 samples.

Results

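The enzymes that build heme and NADPH-cytochrome P450 reductase (Por) were followed in mouse liver across Ehhadh genotype and L-AC treatment. The set holds 9 genes, taken by name from the pathway, with no value used in the rule but with earlier results of these data known: Alas1, Alas2, Alad, Uros, Urod, Cpox, Ppox, Fech and Por. All 9 were among the 24062 genes counted, and all 9 were among the 14196 genes with enough reads to be tested. Polyadenylated RNA from 23 livers of B6/129 mice was sequenced. Ehhadh encodes the peroxisomal L-bifunctional protein of fatty acid oxidation, and the mice were wild type (WT) or Ehhadh knockout (KO). Treatment was saline or L-AC, an abbreviation left unexplained in the labels that work on this mouse gives as L-aminocarnitine, an inhibitor of mitochondrial fatty acid oxidation. Of the 4 groups, WT saline held 7 mice aged 29 to 45 weeks and KO saline held 5 mice aged 31 to 44 weeks. WT L-AC held 6 mice aged 28 to 44 weeks and KO L-AC held 5 mice aged 28 to 38 weeks. The cells in which Ehhadh was deleted, the dose and the hour of collection are not given in the sources used here.

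Heme synthesis starts in mitochondria, where an aminolevulinate synthase joins glycine and succinyl-CoA. Alas1 is the form of that enzyme in liver and most other tissues and sets the rate of the pathway there, while Alas2 is the form of developing red cells. The following enzymes act in the cytosol (Alad, Uros, Urod) and then in mitochondria again (Cpox, Ppox and Fech, which inserts the iron). In liver a large share of new heme goes to cytochrome P450 enzymes of the endoplasmic reticulum (ER), which receive their electrons from NADPH through Por.

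Stretches upstream of 5 of the 9 genes are shown, all of which moved under L-AC in both genotypes: Por rose, and Alad, Urod, Ppox and Alas2 fell. Alas1 and Fech also moved in both genotypes but are not shown. Removal of exon bases left no Alas1 stretch, and no Fech window was used. The sequences are RefSeq promoter windows of build GRCm38.p6, on the strand of the gene, and cover the 250 bases before the RefSeq start, without bases that an annotated exon covers. Capitals mark matches, on either strand, to an E-box, a CCAAT box, a GC box, a GATA motif or a TATA box, whose letters are given with the counts that follow.
Por, chr5:135688895-135689035, plus strand: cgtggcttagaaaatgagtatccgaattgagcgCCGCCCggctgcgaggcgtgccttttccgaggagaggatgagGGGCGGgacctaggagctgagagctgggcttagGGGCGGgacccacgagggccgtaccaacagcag
Alad, chr4:62520064-62520313, minus strand: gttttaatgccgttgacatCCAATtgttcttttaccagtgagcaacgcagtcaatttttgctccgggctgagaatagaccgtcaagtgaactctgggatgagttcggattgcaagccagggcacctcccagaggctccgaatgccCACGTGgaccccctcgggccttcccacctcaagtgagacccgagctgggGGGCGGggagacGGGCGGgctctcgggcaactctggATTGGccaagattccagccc
Urod, chr4:116994414-116994663, minus strand: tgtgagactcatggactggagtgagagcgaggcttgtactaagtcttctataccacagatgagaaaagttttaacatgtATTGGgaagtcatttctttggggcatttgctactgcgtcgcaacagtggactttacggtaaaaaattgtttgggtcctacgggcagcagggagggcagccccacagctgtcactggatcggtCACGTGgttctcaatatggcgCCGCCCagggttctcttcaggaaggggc
Ppox, chr1:171281187-171281436, minus strand: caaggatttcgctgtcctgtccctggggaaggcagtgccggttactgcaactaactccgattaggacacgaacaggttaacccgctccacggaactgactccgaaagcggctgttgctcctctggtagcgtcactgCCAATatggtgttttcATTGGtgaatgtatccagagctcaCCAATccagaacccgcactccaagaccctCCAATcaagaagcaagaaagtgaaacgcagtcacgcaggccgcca
Alas2, chrX:150547167-150547374, plus strand: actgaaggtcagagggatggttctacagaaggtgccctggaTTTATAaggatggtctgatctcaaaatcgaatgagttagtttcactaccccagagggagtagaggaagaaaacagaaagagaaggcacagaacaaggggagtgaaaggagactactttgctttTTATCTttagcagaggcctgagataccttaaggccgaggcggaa

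Promoter windows of 8 of the 9 genes, all but Fech, were used. In these, 9 motifs were searched on both strands of the 250 bases before the start. The E-box CACGTG was found in Alad, Uros and Urod and in 6.02% of the 32841 mouse promoter windows of that length. The Alad match began 105 bases before the start, the Urod match 49 bases and the Uros match 250 bases. CCAAT occurred 4 times in Ppox, 2 times in Alad and once in Urod, and in 33.9% of all windows. The GC box GGGCGG occurred 4 times in Por, 3 of them in the stretch printed, 2 times in Alad and once each in Alas1, Alas2, Uros and Urod, and in 32.7% of all windows. Alas2 was the one gene of the 8 with AGATAA, which 9.99% of all windows held, and with TATAAA, which 12.4% held. No match overlapped another. The Cpox window held none of the 9 motifs. The other 4 motifs were the palindromic NRF1 motif, in 0.783% of all windows, the antioxidant response element TGACNNNGC, in 10.2%, the nuclear receptor element called direct repeat 1, in 0.0335%, and the cyclic AMP response element TGACGTCA, in 1.55%. None of these 4 was present in the windows of the 8 genes. These matches describe letters and are not evidence that a factor binds.

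Libraries held 24521896 to 48095959 reads counted on genes. Ehhadh, the targeted gene, had a mean of 954 ± 335.1 counts per 1000000 counted reads (CPM) in WT saline (SD, n = 7) and 141.6 ± 64.35 CPM in KO saline (SD, n = 5). Under L-AC it had 13040 ± 1602 CPM in WT (SD, n = 6) and 1658 ± 286.3 CPM in KO (SD, n = 5). No KO library reached a WT library of the same treatment, and RNA of the gene remained in KO livers. The hepatocyte markers were high throughout, with Alb between 14860 and 47890 CPM. Their summed level was lower under L-AC (35390 to 60870 CPM) than under saline (65470 to 81620 CPM), with 4 of 8 markers lower and 1 higher in WT and 5 lower in KO. Of 6 Kupffer cell markers 4 fell in WT and 3 in KO, and of 5 stellate cell markers 3 rose in WT and 1 in KO while 2 were below 0 in each genotype without passing. Of 5 cholangiocyte markers 1 fell in each genotype, with median sums of 36.64 and 24.89 CPM in WT saline and WT L-AC and 31.29 and 17.19 CPM in KO. Of 5 endothelial markers 1 fell in WT and 2 in KO. Among all tested genes, 26.6% rose and 26.7% fell in WT, and 25.2% rose and 23.6% fell in KO. The part of these cell types in the results was not tested. The first principal component, 55.2% of the variance, separated all L-AC from all saline libraries. WT saline replicate 1 was the saline library nearest to the L-AC libraries, at -28.09, while the rest of the saline libraries reached from -50.76 to -40.32 and those with L-AC from 26.4 to 68.54. The WT changes and WT saline values that it moved most are given with and without it. In bulk liver, fewer cells of a type and less RNA per cell cannot be told apart.

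Under L-AC the 9 genes moved in both directions. Por and Alas1 rose, and Alas2, Alad, Urod, Ppox and Fech fell, in both genotypes. Alas1 was the only heme synthesis enzyme that rose. Its calls lay close to the threshold and depended on the libraries and settings used. Uros and Cpox passed the test in neither. In WT mice 2 of the 9 genes rose, where 26.6% of all tested genes did, and 5 fell, where 26.7% of all tested genes did. In KO mice 2 rose, where 25.2% of all tested genes did, and 5 fell, where 23.6% did. The median log2 change of the 9 genes was -0.64 in WT and -0.60 in KO, beside medians of -0.00855 and -0.00542 over all tested genes. L-AC changed 53.3% of all tested genes in WT and 48.8% in KO, so a call alone sets none of the 9 apart. It was not counted how many of all tested genes had saline and L-AC livers that did not overlap. A lack of overlap, as given below for single genes, therefore does not set a gene apart either.

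**Figure D1:**
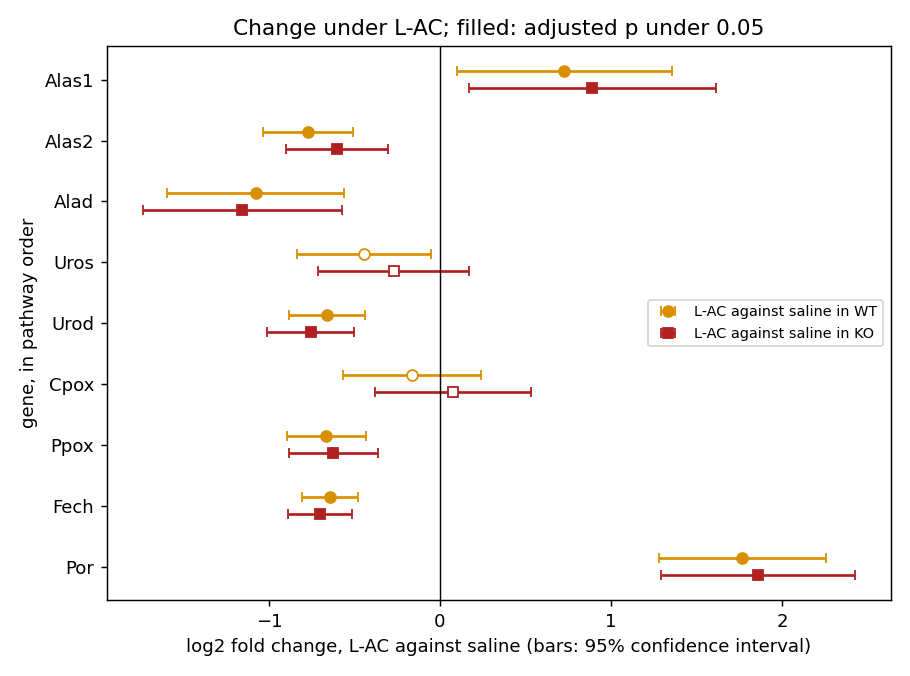
Log2 fold change of each gene under L-AC against saline (x axis) in WT (circles) and KO mice (squares), with 95% confidence intervals from edgeR. Genes are in pathway order on the y axis, and filled symbols passed an adjusted p of 0.05. Alas1 and Por lie to the right of 0, and Alas2, Alad, Urod, Ppox and Fech lie to the left of 0 in both genotypes.

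Alas1 makes the first committed intermediate of the pathway in hepatocytes. In WT saline its level ranged from 175.4 to 952 CPM with a median of 356.7 CPM, and in WT L-AC from 686.6 to 1061 CPM with a median of 758.9 CPM. In KO mice, the saline livers had 307.7, 686.1, 558.1, 410.1 and 427 CPM, and the KO L-AC livers had 703.7, 1014, 979.9, 696 and 1034 CPM. All KO L-AC livers lay above all KO saline livers, while WT saline replicates 1 and 2, at 952 and 754.8 CPM, lay within the range of WT L-AC. Alas1 rose 1.65-fold in WT mice, a log2 change of 0.73 with an SE of 0.30 (adjusted p = 0.0478 in edgeR's quasi-likelihood test). In KO mice it rose 1.85-fold, a log2 change of 0.89 with an SE of 0.35 (adjusted p = 0.0383). Both calls were close to the threshold. Without WT saline replicate 1 the WT change was 0.98 (adjusted p = 0.00615), whereas leaving out 1 of 18 other libraries ended the WT call, with adjusted p up to 0.106 without WT L-AC replicate 4. With age as a covariate the KO change was 0.60 (adjusted p = 0.134).

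The spread of Alas1 among the untreated livers was itself wide. Its coefficient of variation was 61.6% in WT saline and 30.7% in KO saline, against 16.9% and 19.3% in the WT and KO groups given L-AC. The 7 WT saline livers had 952, 754.8, 178.2, 616.4, 352.6, 175.4 and 356.7 CPM, with replicates 3 and 6 lowest. Por varied likewise in WT saline, by 50.7%, and by 12.1% in KO saline. Without WT saline replicate 1 the WT values were 57.9% for Alas1 and 40.6% for Por. Ppox, the enzyme before iron insertion, varied by 7.39% and 7.49% in the same groups.

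Alas2, the erythroid form of the synthase, was counted in every liver, with 1280 to 4882 reads. In WT saline it ranged from 79.55 to 118.9 CPM with a median of 97.85 CPM, and in WT L-AC from 48.7 to 72.77 CPM with a median of 58.23 CPM. The KO saline livers had 97.58, 86.3, 85.86, 88.67 and 104.8 CPM, and the KO L-AC livers had 43.66, 71.02, 50.54, 73.39 and 66.68 CPM. No L-AC liver reached the lowest saline liver of its genotype. Alas2 fell by 0.77 on the log2 scale in WT (SE 0.13, adjusted p = 2.66e-05) and dropped by 0.60 in KO (SE 0.14, adjusted p = 0.00145), so that the 2 synthase genes moved in opposite directions.

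Erythroid genes give the values to set beside Alas2. Of 12 erythroid markers 11 were matched in the files and 5 had enough reads to be tested. Hbb-bs, the adult beta globin, ranged from 65.79 to 280.1 CPM, and the alpha globins Hba-a1 and Hba-a2, which cannot be told apart here because their counts were equal in 20 of 23 libraries, from 47.26 to 171.9 CPM. Defining membrane genes were at or near 0: Slc4a1 had at most 6 reads in a library, and Epb4.2 had at most 2 with none in 18 of the 23 libraries. Klf1, an erythroid transcription factor, had 1.636 to 4.58 CPM.

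The summed level of the 11 markers includes Hba-a1 and Hba-a2 separately, so that alpha globin may enter it more than once. It ranged from 240.4 to 599 CPM in WT saline and from 174.6 to 679.6 CPM in KO saline. In L-AC livers it ranged from 190.2 to 353.8 CPM in WT mice and from 219.7 to 612.5 CPM in KO mice. These ranges overlapped between treatments, where those of Alas2 did not. All 5 tested markers nonetheless had log2 changes below 0 in both genotypes, the direction of Alas2, with medians of -0.50 in WT and -0.41 in KO. Of the 5 tested markers Klf1 fell in WT (log2 change -0.61, SE 0.19, adjusted p = 0.0109), and in KO it was at -0.51 (SE 0.22, adjusted p = 0.0592). Hbb-bs was at -0.50 (SE 0.31, adjusted p = 0.175) in WT and at -0.41 (SE 0.35, adjusted p = 0.344) in KO. Within groups, single livers went both ways. KO L-AC replicate 1 had the highest marker sum of its group, 612.5 CPM, and the lowest Alas2 level, 43.66 CPM. In WT saline, replicates 5, 2 and 3 had the highest marker sums, 599, 497.2 and 453.7 CPM. The same livers had the highest Alas2 levels of that group, 114.5, 116.6 and 118.9 CPM. The part of erythroid cells in the Alas2 change was not tested.

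**Figure D2:**
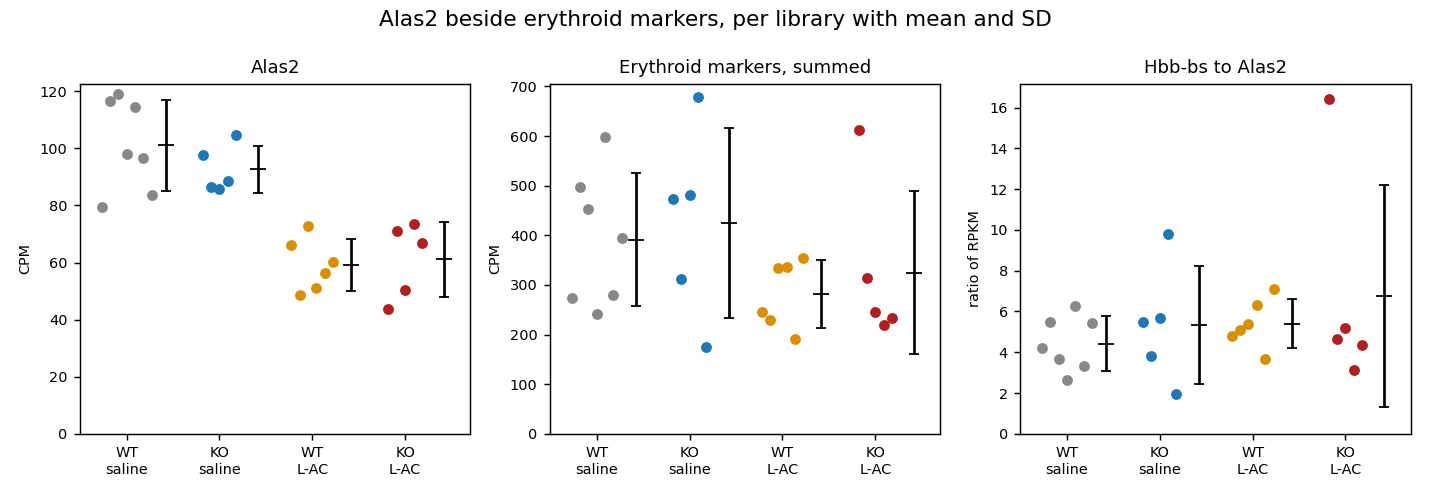
Alas2 level (CPM), summed level of the erythroid markers (CPM) and ratio of Hbb-bs to Alas2 (both in RPKM) in each library by group, with the mean and SD beside the points. Alas2 separates saline from L-AC livers, while the marker sums of the groups overlap.

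Alad, the dehydratase that joins aminolevulinate into the first pyrrole, had the largest fall of the enzymes. WT saline livers ranged from 90.15 to 338.8 CPM with a median of 208.3 CPM, and WT L-AC livers from 73.37 to 122 CPM with a median of 112.6 CPM. In KO mice, the saline livers had 199.2, 208.8, 202.2, 287.5 and 126.9 CPM, and the KO L-AC livers had 62.38, 139, 83.51, 121 and 54.14 CPM. WT saline replicate 1, at 90.15 CPM, was the one WT saline liver within the L-AC range, and in KO the ranges met through 1 library of each group. Alad fell by 1.08 on the log2 scale in WT (SE 0.25, adjusted p = 0.00101) and dropped by 1.16 in KO (SE 0.28, adjusted p = 0.00179). Without WT saline replicate 1 the WT change was -1.21 (adjusted p = 8.79e-05). WT saline replicate 1 thus had the lowest Alad together with the highest Alas1 and Por of its group.

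Uros, which closes the ring of the porphyrin in its natural isomer, was among the least abundant members, with 292 to 1045 reads per library. Its levels were 18.51 to 30.29 CPM in WT saline, 18.69 to 23.94 CPM in KO saline, 10.49 to 21.89 CPM in L-AC livers of WT mice and 9.014 to 21.72 CPM in those of KO mice. In L-AC mice 3 livers lay far below the others, at 10.49 and 10.68 CPM in WT and 9.014 CPM in KO, while the rest overlapped the saline range or lay just under it. Uros did not pass the test in WT (log2 change -0.44, SE 0.19, adjusted p = 0.0517) or in KO (-0.27, SE 0.21, adjusted p = 0.306). The WT value sat at the threshold: DESeq2 gave -0.45 with an adjusted p of 0.0405, and without KO L-AC replicate 5, which narrows the estimated spread, the adjusted p was 0.0199. Leaving out WT saline replicate 2 or 7 or WT L-AC replicate 2 or 3 also brought it under 0.05, down to 0.0255 without WT L-AC replicate 2.

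Urod, the decarboxylase that follows, fell with no overlap between treatments in either genotype. It ranged from 56.15 to 82.66 CPM in WT saline (median 73.55 CPM) and from 38.42 to 52.81 CPM in WT L-AC (median 46.19 CPM). The KO saline livers had 76.43, 70.41, 76.31, 84.67 and 67.81 CPM, and the KO L-AC livers had 43.35, 58.93, 37.46, 46.76 and 35.93 CPM. The lowest WT saline value was again replicate 1. The log2 change was -0.66 in WT (SE 0.11, adjusted p = 2.65e-05) and -0.76 in KO (SE 0.12, adjusted p = 2.88e-05).

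Cpox, the oxidase that brings the pathway back into mitochondria, showed no common direction. It ranged from 187.8 to 339.1 CPM in WT saline and from 198.9 to 400.6 CPM in WT L-AC, where replicate 4 stood at 400.6 CPM and the next liver at 237.4 CPM. In KO mice, the saline livers had 301.8, 338.4, 306.4, 278.4 and 363 CPM, and the KO L-AC livers had 301.9, 340.6, 428, 451.3 and 152.7 CPM, so that KO L-AC replicate 5 lay below every other liver of the study. The log2 change was -0.16 in WT (95% interval -0.57 to 0.24, adjusted p = 0.491) and 0.08 in KO (95% interval -0.38 to 0.53, adjusted p = 0.794). The KO value changed sign without KO L-AC replicate 3 (-0.03) or replicate 4 (-0.05) and with limma-voom (-0.006).

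Ppox oxidises the ring to protoporphyrin, and Fech inserts iron to give heme. Ppox ranged from 21.84 to 26.12 CPM in WT saline and from 12.4 to 17.91 CPM in WT L-AC, and from 20.33 to 24.6 CPM in KO saline and from 10 to 17.57 CPM in KO L-AC. Its log2 change was -0.66 in WT (SE 0.11, adjusted p = 3.12e-05) and -0.62 in KO (SE 0.13, adjusted p = 0.000303). Treatments did not overlap in either genotype.

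Fech had the most even response. It ranged from 131.8 to 193.4 CPM with a median of 163.2 CPM in WT saline and from 94.39 to 107.8 CPM with a median of 104.8 CPM in WT L-AC. The KO saline livers had 181.2, 150.4, 158.2, 167.7 and 183.3 CPM, and the KO L-AC livers had 91.85, 108.9, 102.4, 113 and 101 CPM. All saline livers lay above all L-AC livers. Fech fell by 0.64 on the log2 scale in WT (SE 0.08, adjusted p = 6.7e-07) and dropped by 0.70 in KO (SE 0.09, adjusted p = 1.37e-06), the smallest standard errors of the 9 genes.

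Por, which passes electrons from NADPH to the ER P450 enzymes, rose the most. WT saline livers ranged from 222.4 to 673.6 CPM with a median of 232.9 CPM, and WT L-AC livers from 785.9 to 1422 CPM with a median of 1336 CPM. In KO mice, the saline livers had 312.9, 373, 309.7, 374.9 and 287.1 CPM, and the KO L-AC livers had 1310, 986.6, 1241, 993.8 and 1487 CPM. Every L-AC liver lay above every saline liver. WT saline replicates 1 and 4, at 673.6 and 522.5 CPM, were the saline livers nearest to the L-AC range. Por rose 3.4-fold in WT mice, a log2 change of 1.77 with an SE of 0.24 (adjusted p = 2.05e-06). In KO mice it rose 3.63-fold, a log2 change of 1.86 with an SE of 0.27 (adjusted p = 8.4e-06). Without WT saline replicate 1 the WT change was 2.002 (adjusted p = 7.59e-08). Of the other genes, Alas2 was then at -0.82, Urod at -0.71, Ppox at -0.68 and Fech at -0.64, each still past the threshold, and Uros at -0.36 and Cpox at -0.24, neither past it.

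**Figure D3:**
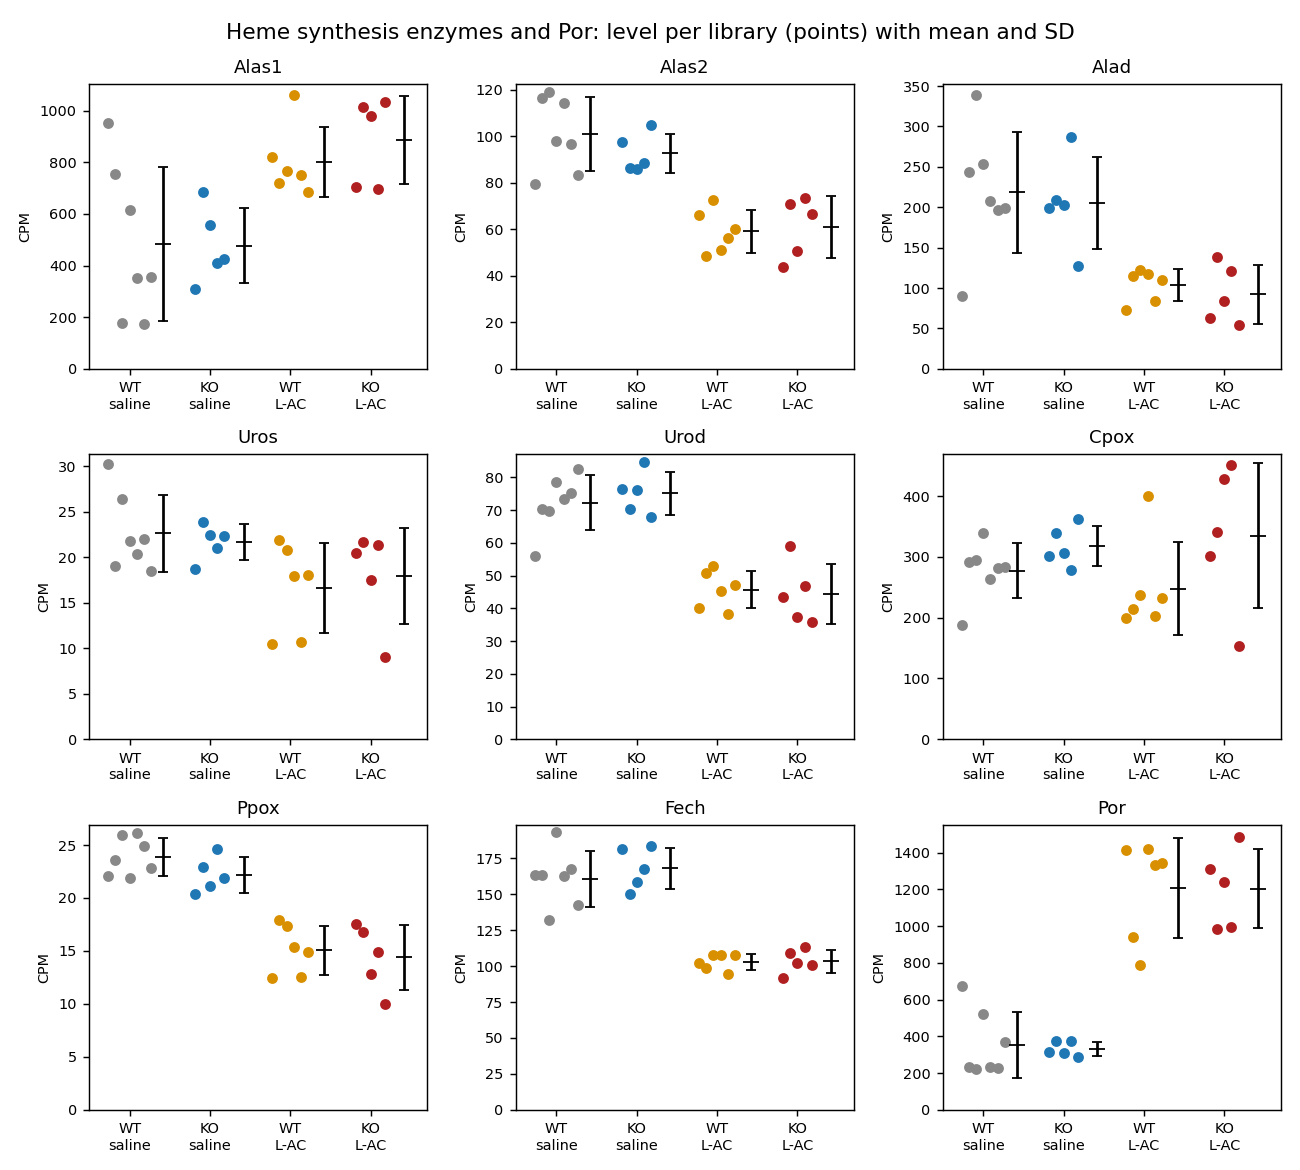
Level of each gene in CPM (y axes from 0, scaled for each gene) in every library of the 4 groups, with the mean and SD beside the points. Por, Urod, Ppox, Fech and Alas2 separate saline from L-AC livers in both genotypes, and Cpox and Uros overlap. The share of all tested genes that separate in this way was not counted.

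No gene of the 9 passed the test for genotype. Under saline 0 of 9 passed the test between KO and WT, where 0.0141% of all tested genes did (0.00704% higher in KO and 0.00704% lower). Under L-AC 0 of 9 passed, where again 0.0141% did, with 0.00704% in each direction. Ehhadh was one of the 2 genes called in each case, with log2 changes of -2.75 (SE 0.25, adjusted p = 1.94e-06) and -2.98 (SE 0.26, adjusted p = 6.87e-07). At an unadjusted p of 0.05, edgeR called 0 of the 9 in either comparison, where 1.86% of all tested genes passed under saline and 4.53% under L-AC, so that 0 of 9 is near the background, and DESeq2 and limma-voom called 0 after adjustment. The log2 differences between KO and WT ran from -0.13 for Alas2 to 0.20 for Cpox under saline. Under L-AC they ran from -0.17 for Alad to 0.44 for Cpox (SE 0.21, 95% interval 0 to 0.87, unadjusted p = 0.0501, adjusted p = 1).

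The precision of these comparisons differed between genes. For Fech the 95% interval of the KO difference was -0.10 to 0.24 under saline and -0.17 to 0.18 under L-AC. For Alas1 it was -0.68 to 0.65 under saline and -0.54 to 0.83 under L-AC, and for Por -0.61 to 0.41 and -0.53 to 0.52. Differences within these intervals were thus not excluded for these 2 genes. The interaction, which asks whether the L-AC response differed between genotypes, was called for 0 of 9 genes and for 0 of 14196 tested genes. At an unadjusted p of 0.05 it held 0 of the 9 and 320 of all, and DESeq2 and limma-voom called 0 of all. Its values ran from -0.10 for Urod to 0.24 for Cpox, with a 95% interval of -0.64 to 0.82 for Por and -0.79 to 1.12 for Alas1.

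Levels per transcript length (RPKM, CPM per kilobase of exon) allow the genes to be ranked. In WT saline, Alas1 (148.4 ± 91.38 RPKM) and Por (144.2 ± 73.12 RPKM) were highest and overlapped (SD, n = 7). They were followed by Cpox at 87.13 ± 14.36, Urod at 60.3 ± 7.043, Fech at 55.4 ± 6.734, Alas2 at 51.07 ± 8.097 and Alad at 47.51 ± 16.31 RPKM, with each neighbour overlapping the next. Without WT saline replicate 1, Alas1 was at 124.5 ± 72.12 and Por at 122.6 ± 49.78 RPKM (SD, n = 6). Ppox at 13.12 ± 0.9701 and Uros at 12.5 ± 2.348 RPKM lay below all of these and overlapped each other. In KO saline the order of the 9 genes was the same, and Por, Cpox and Urod did not overlap one another.

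Under L-AC Por was the highest of the 9, at 490.8 ± 110.9 RPKM in WT (SD, n = 6) and 489.9 ± 87.37 RPKM in KO (SD, n = 5). Alas1 followed at 245.6 ± 41.44 RPKM in WT, where 1 or more libraries overlapped Por, and at 271.7 ± 52.35 RPKM in KO, where none did. Cpox, Urod, Fech, Alas2 and Alad kept their places behind Alas1, from 77.76 ± 24.03 RPKM for Cpox to 22.53 ± 4.356 RPKM for Alad in WT. Uros and Ppox were again lowest, at 9.189 ± 2.725 and 8.282 ± 1.268 RPKM in WT.

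Ratios of these levels within a library set Alas1 against Alas2 and Alad, as a description with no test. The ratio of Alas1 to Alas2 was 3.072 ± 2.204 in WT saline (SD, n = 7) and 8.429 ± 2.253 in WT L-AC (SD, n = 6). In KO it was 3.195 ± 1.177 under saline and 9.081 ± 2.183 under L-AC (SD, n = 5 each). Alas1 to Alad, the first and second step, went from 4.234 ± 4.864 to 11.28 ± 2.905 in WT and from 3.497 ± 1.32 to 15.58 ± 7.323 in KO. In WT saline the Alas1 to Alad ratio had a median of 2.525 and one library, replicate 1, at 14.91. Without that library the mean ratio in WT saline was 2.455 ± 1.343 for Alas1 to Alad and 2.372 ± 1.311 for Alas1 to Alas2 (SD, n = 6).

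The P450 enzymes that depend on Por did not follow it as a group. Of 52 ER P450 genes, 7 rose and 31 fell in WT, and 5 rose and 31 fell in KO. Their median log2 change was -0.74 in WT and -0.88 in KO. Among all tested genes 26.6% rose and 26.7% fell in WT, and 25.2% rose and 23.6% fell in KO. The P450 genes with the smallest p all fell. Cyp2d10 fell by 0.78 (SE 0.08, adjusted p = 2.34e-08) in WT and dropped by 0.96 (SE 0.09, adjusted p = 1.09e-08) in KO. Cyp2f2, an enzyme of airway and liver, fell by 1.62 (SE 0.17) in WT and dropped by 1.72 (SE 0.19) in KO. Cyp26a1, which breaks down retinoic acid, fell by 4.54 (SE 0.45) in WT, and Cyp2g1 fell by 4.28 (SE 0.46). Cyp2g1 was near the floor, with a mean of 0.6746 CPM in WT saline and 0.03432 CPM in WT L-AC. In KO, Cyp7a1, which starts the classic route from cholesterol to bile acids, fell by 6.10 (SE 0.69) and Cyp3a25 dropped by 1.66 (SE 0.17). The mean of Cyp7a1 in WT went from 50.78 CPM under saline to 1.595 CPM under L-AC. Here and in the lists below, a gene given for 1 genotype was named by its rank in that comparison. Such naming does not mark a difference between genotypes.

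The P450 genes that rose in both genotypes, named after their values were seen, were Cyp2b10 and 4 genes of the Cyp4a family. Cyp2b10, a target of the receptor Car (Nr1i3), rose by a log2 change of 3.97 in WT (SE 0.58, adjusted p = 6.16e-06) and 3.96 in KO (SE 0.69, adjusted p = 5.81e-05), from a low level of 2.456 ± 1.712 CPM in WT saline to 38.29 ± 15.67 CPM in WT L-AC. Cyp4a14, a fatty acid omega-hydroxylase, rose by 1.90 (SE 0.35, adjusted p = 0.000111) in WT and 1.62 (SE 0.41, adjusted p = 0.00215) in KO. Cyp4a10, Cyp4a31 and Cyp4a32 rose by 0.85, 0.91 and 1.16 in WT and by 0.78, 0.84 and 1.51 in KO. Reads of such near-identical P450 genes may be split among them, so values of single Cyp4a, Cyp2c, Cyp2d and Cyp3a genes are uncertain.

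Summed per length, the 52 P450 genes had 16150 ± 1342 RPKM in WT saline and 14840 ± 1519 RPKM in WT L-AC, with overlapping ranges. In KO they had 16950 ± 1412 and 14310 ± 2035 RPKM, also overlapping. This sum joins opposite movements. The 6 Cyp4a genes went from 2568 ± 1081 to 6496 ± 1370 RPKM in WT and from 3082 ± 640.4 to 7058 ± 1385 RPKM in KO. In WT the ranges of this Cyp4a sum overlapped, with saline replicate 7 at 4306 RPKM and L-AC replicate 5 at 4132 RPKM. Cyp4a14 and Cyp4a10 carried that sum, at 4047 ± 926.2 and 1804 ± 402.8 RPKM in WT L-AC. The means of Cyp4a12a and Cyp4a12b went the other way under L-AC without passing the test, at 149.1 against 206 RPKM and 54.65 against 74.44 RPKM in WT, and at 179.4 against 231.3 RPKM and 75.18 against 84.38 RPKM in KO. The other 46 genes went from 13580 ± 1684 to 8339 ± 578.4 RPKM in WT and from 13870 ± 1014 to 7254 ± 1251 RPKM in KO. Cyp2e1 was the largest part of that sum, with means of 5779 and 3449 RPKM in WT and 5598 and 2809 RPKM in KO. Some of these genes went the other way, such as Cyp2b10. The mean of Cyp8b1 was 310.4 RPKM in WT saline and 529.4 RPKM in WT L-AC.

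Set against Por in the same library, the P450 sum was 133.9 ± 52.15 times the Por level in WT saline (SD, n = 7) and 32.14 ± 10.66 times in WT L-AC (SD, n = 6). In KO it was 127.3 ± 19.77 times under saline and 30.51 ± 9.521 times under L-AC (SD, n = 5 each). The lowest saline liver, WT replicate 1 at 52.02, lay just above the highest L-AC liver at 50.08. Without it the WT saline mean was 147.6 ± 41.19 (SD, n = 6). Without the Cyp4a genes the ratios were 115 ± 50.74 and 17.87 ± 5.021 in WT and 104 ± 14.36 and 15.39 ± 4.85 in KO. These are ratios of RNA, and protein and heme were not measured.

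**Figure D4:**
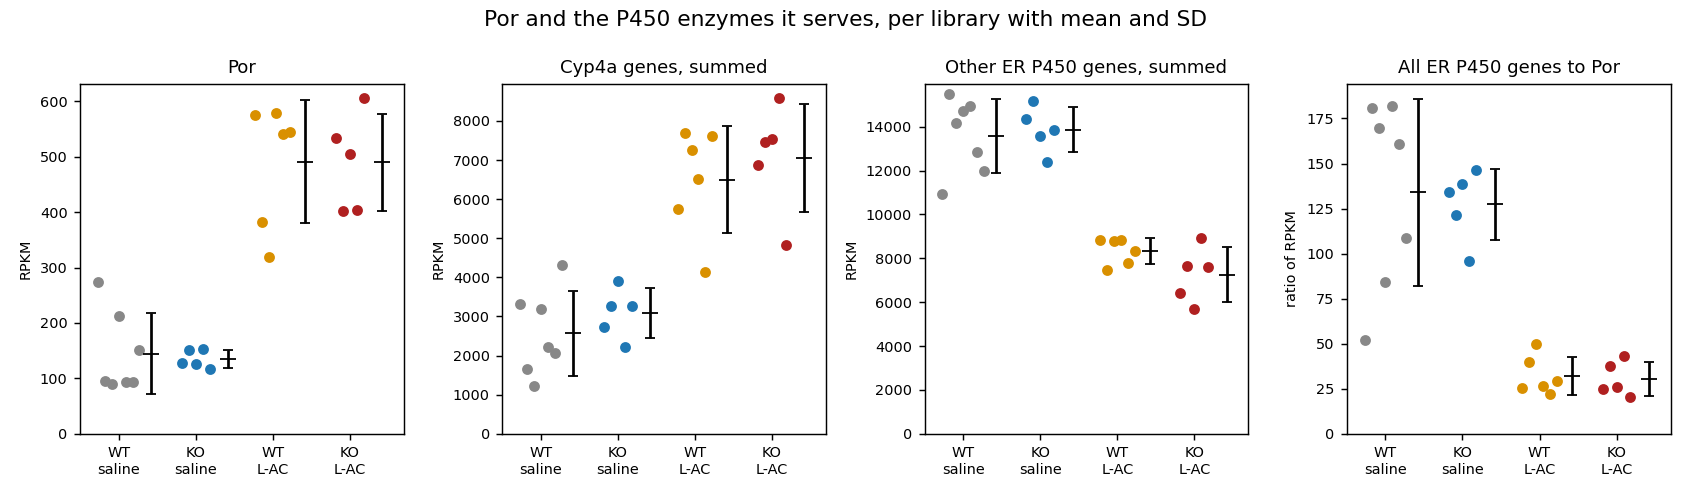
Por, the summed Cyp4a genes and the summed other ER P450 genes (RPKM, y axes from 0), and the ratio of all 52 P450 genes to Por, in each library by group with the mean and SD beside the points. Por and the mean Cyp4a sum are higher under L-AC, with overlapping Cyp4a ranges in WT. The sum of the other P450 genes is lower under L-AC, and the ratio has a mean of 133.9 in WT saline and 32.14 in WT L-AC.

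Most other partners in electron transfer at the ER and in mitochondria fell. Of 8 such genes 0 rose and 6 fell in WT (median log2 change -0.63), and 0 rose and 7 fell in KO (median -0.56). The shares of all tested genes that rose and fell were 26.6% and 26.7% in WT and 25.2% and 23.6% in KO. Cyb5b, the cytochrome b5 of the outer mitochondrial membrane, fell by 1.12 in WT (SE 0.13, adjusted p = 1.8e-07) and dropped by 1.24 in KO (SE 0.14, adjusted p = 2.95e-07). Cyb5, the ER form that can pass an electron to P450 enzymes, fell by 0.57 in KO (SE 0.11, adjusted p = 0.000179). Mitochondrial ferredoxin Fdx1 fell by 0.74 in WT (SE 0.12) and dropped by 0.54 in KO (SE 0.14), and its reductase Fdxr fell by 0.96 in WT (SE 0.18). Sqle, a cholesterol synthesis enzyme that also takes electrons from Por, fell by 2.33 in WT (SE 0.46, adjusted p = 0.000192), and Cyp27a1, a mitochondrial P450, fell by 0.44 in KO (SE 0.11, adjusted p = 0.00272).

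Transport of heme, its precursors and iron showed both directions. Of 16 genes 5 rose and 7 fell in each genotype, with medians of -0.11 in WT and -0.18 in KO. Over all tested genes 26.6% rose and 26.7% fell in WT, and 25.2% rose and 23.6% fell in KO. Abcb10, a mitochondrial inner membrane transporter needed for heme synthesis, fell from 35.78 ± 5.08 to 14.12 ± 2.571 CPM in WT (log2 change -1.34, SE 0.13, adjusted p = 2.29e-08) and dropped by 1.36 in KO (SE 0.15, adjusted p = 1.44e-07). Slc25a38, the glycine carrier of mitochondria, fell by 0.62 in WT (SE 0.08, adjusted p = 1.17e-06) and dropped by 0.41 in KO (SE 0.09, adjusted p = 0.000672). The mitochondrial iron importers parted: Slc25a37 (mitoferrin-1) fell by 0.80 in WT (SE 0.13) and dropped by 0.67 in KO (SE 0.14), while Slc25a28 (mitoferrin-2) rose by a log2 change of 1.12 in WT (SE 0.14, adjusted p = 9e-07) and 1.17 in KO (SE 0.16, adjusted p = 3.96e-06).

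The substrates of the first step come from the citric acid cycle and from serine and glycine metabolism. Of 9 genes of their supply 2 rose and 3 fell in WT (median -0.19), and 2 rose and 4 fell in KO (median -0.21). For all tested genes the shares that rose and fell were 26.6% and 26.7% in WT and 25.2% and 23.6% in KO. Dlst and Ogdh, subunits of the complex that makes succinyl-CoA, rose by log2 changes of 0.96 (SE 0.08, adjusted p = 4.27e-09) and 0.57 (SE 0.10) in WT and by 1.02 (SE 0.10, adjusted p = 1.99e-08) and 0.53 (SE 0.11) in KO. Amt, of the glycine cleavage system, fell by 1.17 in WT (SE 0.18) and dropped by 1.15 in KO (SE 0.21). Shmt1, which interconverts serine and glycine in the cytosol, fell by 1.08 in WT (SE 0.20) and dropped by 1.22 in KO (SE 0.23).

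In heme breakdown the inducible oxygenase rose and both biliverdin reductases fell. Of 5 genes 1 rose and 2 fell in each genotype, with medians of -0.16 in WT and -0.25 in KO. Across all tested genes 26.6% rose and 26.7% fell in WT, and 25.2% rose and 23.6% fell in KO. Hmox1, the inducible heme oxygenase, rose from 10.52 ± 4.184 to 22.53 ± 11.8 CPM in WT (log2 change 1.10, SE 0.28, adjusted p = 0.00246) and from 12.89 ± 4.237 to 31.54 ± 7.486 CPM in KO (1.30, SE 0.33, adjusted p = 0.00221). The biliverdin reductases fell in both genotypes, with log2 changes for Blvra of -0.46 (SE 0.10) in WT and -0.49 (SE 0.11) in KO, and for Blvrb of -0.68 (SE 0.14) and -0.78 (SE 0.15).

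Among 13 regulators of Alas1 and proteases of its protein, 2 rose and 3 fell in WT (median -0.04), and 0 rose and 4 fell in KO (median -0.009). All tested genes rose in 26.6% and fell in 26.7% of cases in WT, and in 25.2% and 23.6% in KO. Nr1i3 (Car), a nuclear receptor that drives Alas1, Por and Cyp2b10 when active, fell by 0.77 in WT (SE 0.19, adjusted p = 0.00196) and dropped by 1.04 in KO (SE 0.22, adjusted p = 0.000479). Ppargc1a, a coactivator of Alas1 in fasting, fell by 0.70 in WT (SE 0.23, adjusted p = 0.0116) and dropped by 0.64 in KO (SE 0.26, adjusted p = 0.0435). The clock repressor Nr1d1 fell by 0.60 in WT (SE 0.17, adjusted p = 0.00509) and dropped by 0.71 in KO (SE 0.19, adjusted p = 0.00429). Ppara rose by a log2 change of 0.29 in WT (SE 0.08, adjusted p = 0.00313), and Hnf4a fell by 0.41 in KO (SE 0.13, adjusted p = 0.0131).

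Other liver hemoproteins moved in both directions. Of 8 genes 3 rose and 4 fell in WT (median -0.21), and 3 rose and 3 fell in KO (median -0.13). Shares of all tested genes that rose and fell were 26.6% and 26.7% in WT and 25.2% and 23.6% in KO. Cycs, cytochrome c, rose by a log2 change of 1.11 in WT (SE 0.09, adjusted p = 7.42e-10) and 1.29 in KO (SE 0.10, adjusted p = 1.17e-09). Catalase (Cat) fell from 2890 ± 435.9 to 1398 ± 257.6 CPM in WT (log2 change -1.05, SE 0.14, adjusted p = 1.21e-06) and dropped by 1.06 in KO (SE 0.15, adjusted p = 5.95e-06). Ido2 fell by 3.29 in WT (SE 0.41) and dropped by 3.61 in KO (SE 0.46). Cyc1, of respiratory complex III, rose by a log2 change of 0.50 in WT (SE 0.10), and Tdo2, the main tryptophan dioxygenase of liver, by 0.64 in KO (SE 0.15).

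**Figure D5:**
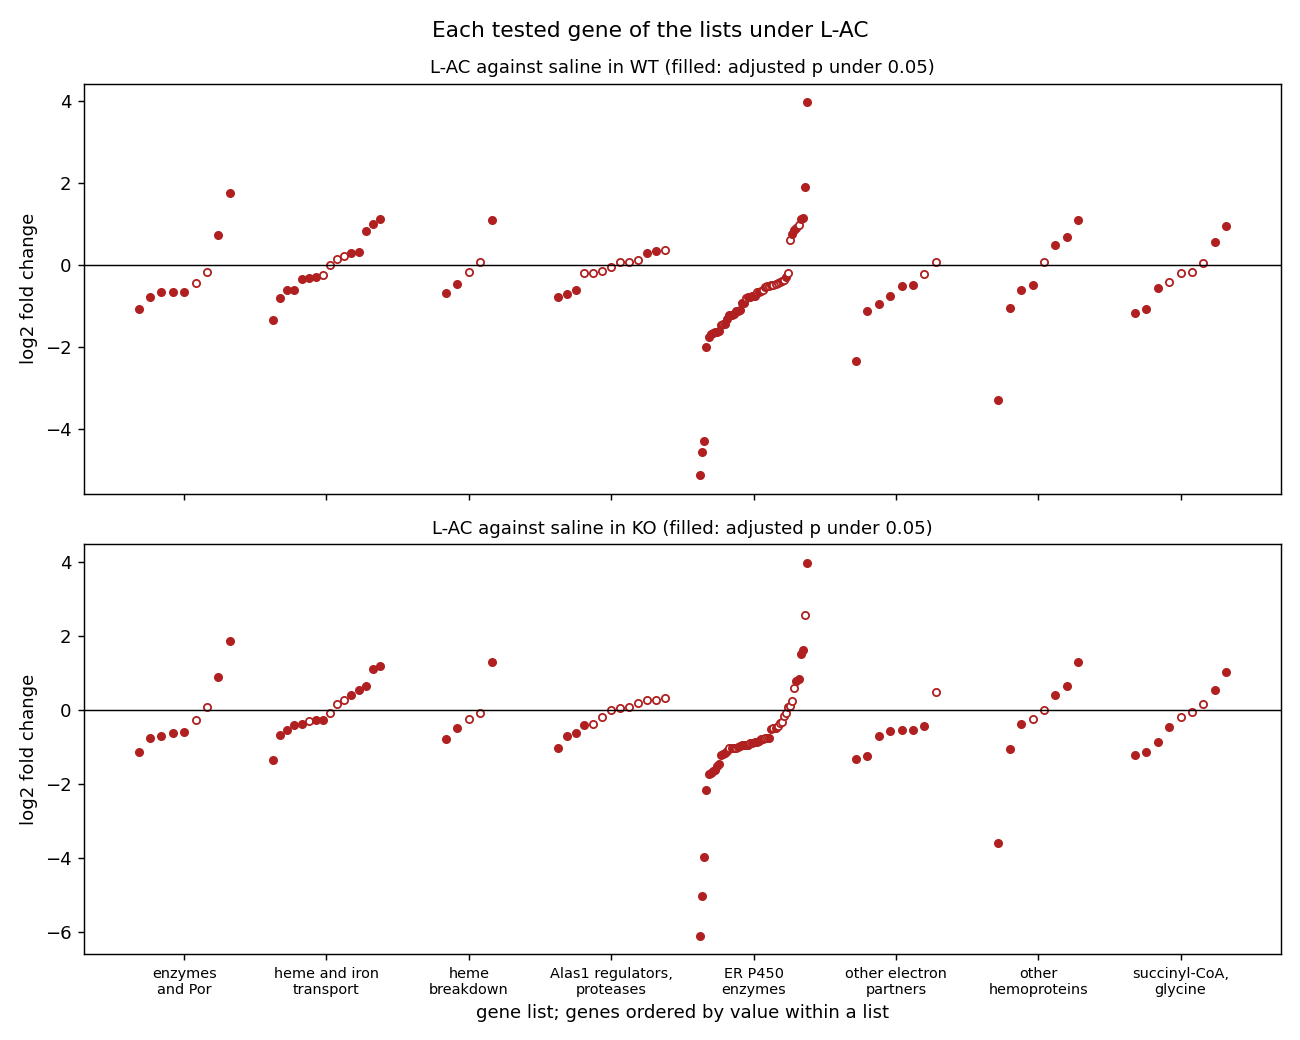
Log2 fold change of every tested gene of the 9-gene set and of the 7 lists around it under L-AC against saline, in WT (upper) and KO (lower), ordered by value within a list. Filled points passed an adjusted p of 0.05. Most ER P450 genes lie below 0, with 31 of 52 called lower in each genotype, where 26.7% of all tested genes were in WT and 23.6% in KO.

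None of the genes of these 7 lists passed the test between KO and WT after adjustment in edgeR, under saline or L-AC, nor did any with DESeq2 or limma-voom. At an unadjusted p of 0.05, which 1.86% of all tested genes passed under saline and 4.53% under L-AC, edgeR called 2 of the 52 P450 genes under saline and 3 under L-AC, and 1 regulator, 1 gene of heme breakdown and 2 of the electron partners under L-AC. The smallest p was that of Sqle under L-AC, with a log2 difference of 1.41 (SE 0.47, unadjusted p = 0.00674, adjusted p = 0.838). Among the P450 genes it was Cyp51, of cholesterol synthesis, under L-AC (0.80, SE 0.29, adjusted p = 0.878) and Cyp39a1 under saline (1.01, SE 0.39, adjusted p = 1). In the other lists the gene with the smallest p under saline was Slc25a38 (-0.08), Hmox1 (0.29), Ppara (0.13), Cyb5 (0.12), Cycs (-0.15) and Dlst (-0.05), each at an adjusted p of 1. In 4 of these lists it was, under L-AC, Hmox2 (-0.23), Nr1d2 (0.32), Cyc1 (-0.13) and Gldc (-0.39), also each at an adjusted p of 1.

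Within groups, the genes were compared by Pearson's r of their log2 CPM after the mean of each group was taken off, over the 23 libraries, which share depth and liver composition. Uros and Ppox were the most alike pair (r = 0.795), followed by Alad and Urod (r = 0.745) and Urod and Ppox (r = 0.665). Alas1 and Por had r = 0.58. Por ran against Alas2 (r = -0.538) and Alad (r = -0.533), where Spearman's rho was -0.509 and -0.384. WT saline replicate 1 had the highest Alas1 and Por and the lowest Alas2 and Alad of its group. Values of r without that library were not computed. For Fech r ran from -0.0884 with Ppox to 0.304 with Alas2.

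Of all tested genes, the 5 most like Por over the 23 libraries were Pnpla2 (r = 0.903), Cidec (r = 0.857), Odc1 (r = 0.854), Afg3l2 (r = 0.841) and Urb2 (r = 0.83). Pnpla2 is the triglyceride lipase of lipid droplets and Cidec a lipid droplet protein. Among the 5 most like Alas1 were Wdr45b (r = 0.829), Tmem129 (r = 0.763), Mphosph8 (r = 0.754) and Sdr42e1 (r = 0.747). These values for Alas1 were lower than the highest for Por, and the highest r among so many genes is large by selection.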

How the data were processed

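Reads were aligned to mm10 (GRCm38) with STAR 2.4.0 and counted per gene with featureCounts 1.4.4, per the submitters' processing notes and the file headers. The deposited values were raw counts of reads per gene, and 0 columns lacked a sample. Counting ignored strand and allowed a read to count for each gene it overlapped, per the file headers, so overlapping and antisense genes cannot be told apart; of the 9 genes only Alas2 overlapped another, Mir3620, by 29 bases (0.01027 CPM). The genes lie, in mm10, at 9:106233455-106247954 (Alas1), X:150547417-150570622 (Alas2), 4:62505984-62520063 (Alad), 7:133686330-133709295 (Uros), 4:116990217-116994375 (Urod), 16:58670208-58680389 (Cpox), 1:171276992-171281186 (Ppox), 18:64456550-64489066 (Fech) and 5:135689214-135735325 (Por), and counts are over their exons. The RefSeq starts used for promoter windows lay 38 bases (Urod) and 69 bases (Por) upstream of the starts in the files and matched them for the other 6 windows.

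Genes with at least 10 reads in enough libraries and 15 in all (filterByExpr) were tested with edgeR 4.0.16 in R 4.3.3: TMM scaling, 4 group means over 23 libraries, quasi-likelihood test, Benjamini-Hochberg adjustment over all 14196 tested genes, threshold 0.05. Rose, fell and changed mean past that threshold. CPM are counts per 1000000 of the TMM-scaled library, and RPKM divide by exon length. Alternatives were DESeq2 1.42.0, limma-voom (limma 3.58.1), DESeq2 size factors, 2 other filters, age as a covariate, only the groups compared, a threshold of 0.01, and each library left out. Steps were tested on simulated data. Each library is 1 animal by its label; nothing states litters or batches. Named are the 9 genes, Ehhadh, up to 4 called genes of each list with the smallest p per comparison of 2 groups, or its gene with the smallest p where none was called, and the 5 genes most like Alas1 and Por. The members and lists were chosen with earlier results of these data known. Other enzymes of the pathway, and some genes that this rule would name, are not reported here. Symbols given by older names in the files were matched through RefSeq synonyms (Cyb5, Epb4.2).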

Additional observations from a re-analysis of the deposited data

Results flagged for a closer look

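In 40 groups of 5 to 7 livers (9 genes and Ehhadh in 4 groups), 3 held a liver that stood apart from the rest by Dixon's criterion, which chance alone meets in about 1 in 20 groups. WT L-AC replicate 4 had 1061 CPM of Alas1, and the next liver had 819.6 CPM (gap 0.645 of the range, critical value 0.625). The same liver had 400.6 CPM of Cpox, and the next had 237.4 CPM (gap 0.809 of the range). KO saline replicate 3 had 252.9 CPM of Ehhadh, and the next had 131.6 CPM (gap 0.749 of the range, critical value 0.71). No gene of the set was called for a response that differed between genotypes.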

How the results depend on the processing

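Alas2, Alad, Urod, Ppox, Fech and Por kept their direction and their call under L-AC in both genotypes in 8 other settings and in 23 runs that each left out 1 library. Alas1 did not. In WT its change was 0.728 with no filter on low counts (adjusted p = 0.0553) and 0.726 with only the groups compared (adjusted p = 0.0903). Over the runs without 1 library its adjusted p ran from 0.00615 to 0.106 in WT, where 18 runs lost the call, and from 0.0215 to 0.0946 in KO, where 6 did. Neither Alas1 call passed 0.01. Uros in WT was called with DESeq2, with limma-voom (-0.475), with a filter of 1 CPM (-0.453), with age (-0.46) and in 5 runs without 1 library. Cpox in KO changed sign with limma-voom (-0.006) and ran from -0.054 to 0.261 without 1 library. The count of called genes of the 9 was 6 to 8 in WT and 6 to 7 in KO, and 0 for genotype and interaction throughout. Called genes of the 7 lists numbered 76 in WT (65 to 81 in other settings) and 74 in KO (60 to 77). Over all genes, 2 passed between genotypes under saline (7 with DESeq2, 5 without KO saline replicate 1) and 2 under L-AC (15 with DESeq2, 6 without KO L-AC replicate 4); the cause was not tested. Spearman's rho in place of Pearson's r was 0.659 for Uros and Ppox, 0.655 for Alad and Urod, 0.606 for Urod and Ppox and 0.446 for Alas1 and Por. Leaving the Cyp4a genes out of the P450 sum was chosen after the data were seen. Scaling to total counts moved no mean RPKM by more than its SD. No paired analysis was possible because the labels number no replicates.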
